A study of Rattus norvegicus with 9 samples.

Results

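Kidneys of rats that received icariin before contrast medium were compared with kidneys of untreated rats, 3 libraries against 3 of the 9 in the series. Of 36267 features in the expression table, the 16731 with at least 1 CPM (reads of a feature scaled to the library's total) in at least 3 of the 9 libraries were tested. The question was how far kidneys given icariin and contrast still differed from kidneys that had received nothing. Icariin is a prenylated flavonol glycoside from plants of the genus Epimedium. Contrast-induced acute kidney injury (CIAKI) is the loss of kidney function that can follow an iodinated X-ray contrast agent.

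All rats weighed 180 to 200 g, and the control rats received no treatment. The icariin rats received icariin by stomach at 100 mg/kg once a day for 3 days. They then received the whole injury protocol of the CIAKI group: furosemide, a loop diuretic, at 200 mg/kg by stomach, 6 h of dehydration, and iopromide with 370 mg of iodine per mL at 15 mL/kg into the tail vein. The groups analysed hold no rats given icariin alone and no rats given furosemide or dehydration without contrast. Effects of icariin, furosemide, dehydration and contrast on the distance from untreated kidneys therefore cannot be told apart. The labels give neither strain, sex and age nor the time of day, the feeding or the interval after contrast at which kidneys were taken. A difference between the groups in time of day or feeding therefore could not be told apart from the treatments.

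Mammalian cells keep time with a transcriptional loop. ARNTL (also called BMAL1) pairs with CLOCK or NPAS2 and switches on Per and Cry genes, whose proteins then repress that pair, while ROR and NR1D proteins raise and lower Arntl transcription. In the kidney this loop sets daily rhythms of transport, and its phase follows light, feeding and glucocorticoids. PPAR alpha is a nuclear receptor for fatty acids that is active in fasting. Its targets carry fatty acids into mitochondria and peroxisomes for oxidation, a main fuel of the proximal tubule, and make ketone bodies.

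The libraries held 64380578 to 90398405 counted reads, so 1 CPM stood for 64.4 to 90.4 reads. Mitochondrially encoded genes took 1.65% of the reads of icariin kidney 2 and 3.86% to 5.71% in the other 8 libraries. Most of that gap was Mt-co1, a cytochrome c oxidase subunit, at 437 CPM in icariin kidney 2 and 35288 and 38157 CPM in icariin kidneys 1 and 3. Kidney identity was clear in all 6 libraries: Slc34a1, the proximal phosphate transporter, stood at 4214 to 5058 CPM in controls and at 4185 to 4748 CPM in icariin kidneys, and Umod, the thick limb protein uromodulin, at 2347 to 3852 CPM and 3202 to 3520 CPM.

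Few of the tested features passed the test between the 2 groups. limma called 105 of the 16731 features at an adjusted p below 0.05, which is 0.628%. Of these, 67 were higher with icariin plus contrast (0.4% of the tested features) and 38 were lower (0.227%). The median absolute log2 difference was 0.117 over all tested features and 0.954 over the called ones, and 47 called features differed at least 2-fold (31 higher and 16 lower). Among all tested features, called or not, 241 differed at least 2-fold. For the CIAKI kidneys without icariin the same fit called 6903 features (41.3%) against the same 3 controls, with a median absolute log2 difference of 0.333. Both comparisons share the controls, so CIAKI values are given beside the icariin values only for reference. At an unadjusted p below 0.05, 1704 features (10.2%) differed, 792 higher and 912 lower. Icariin and control libraries did not overlap in any of the 105 called features, against 19.3% of all tested features. The calls were made on the same values, so a lack of overlap in a called gene is description and not separate support. The count was 38, 31 and 31 without control 1, 2 and 3, and 61, 31 and 41 without icariin 1, 2 and 3. It was 76 with edgeR and 524 with DESeq2, both on the reads.

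**Figure D1:**
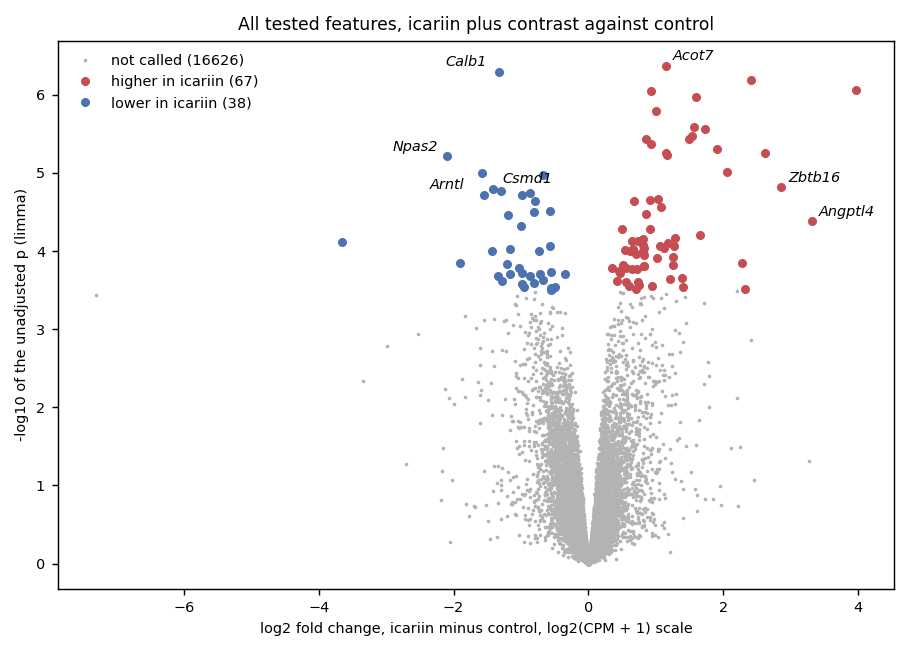
Each point is 1 of the 16731 tested features, with the log2 fold change of icariin plus contrast against control on the x axis and minus log10 of the unadjusted limma p on the y axis. Red points are the 67 features called higher and blue points the 38 called lower. Angptl4 lies at 3.32 and Npas2 at -2.10.

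Of the 105 called features, 36 belonged to at least 1 of the 51 gene lists used and 69 to none. Members passed the test in 14 lists and in none of the other 37. Genes of the PPAR alpha and fasting response (9 of 24 tested), the core clock (8 of 15), mitochondrial fatty acid oxidation (4 of 17), clock output (3 of 15) and the glucocorticoid response (3 of 12) held 27 of these 36. Another 9 lists had 1 called member each. Over all tested features 0.628% were called, and the lists were chosen with earlier results of these data known.

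**Figure D2:**
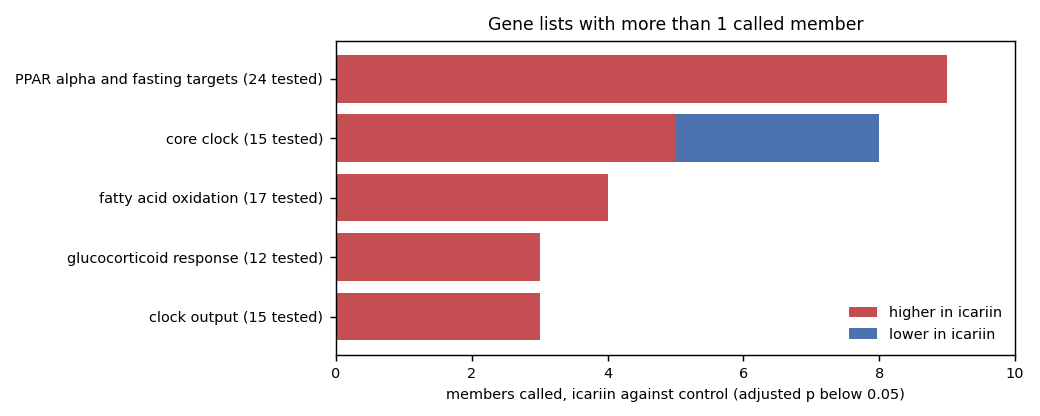
Bars count the members of each gene list that were called higher (red) or lower (blue) with icariin plus contrast than in control, for the 5 lists with more than 1 called member. PPAR alpha and fasting targets lead with 9 members higher, and the core clock has 5 higher and 3 lower.

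The clock genes differed in opposite directions in the 2 arms of the loop. Arntl, Npas2 and Clock, which encode the activators, were lower with icariin plus contrast, while Per1, Per2, Per3 and Cry1, which encode the repressors, and Rora, an activator of Arntl, were higher. The promoters of Arntl, Per2 and Tef are shown because these genes were called and the windows hold exact letters of a clock-related motif. The capitals mark the motif: the ROR element TAGGTCA in Arntl, which RefSeq lists as Bmal1, the D-box TTANGTAA in Per2 and the E-box CACGTG in Tef. The windows are from RefSeq on build GRCr8 and run from 250 bases before to 50 bases after the start site, at chr1:176766078-176766377 on the plus strand for Arntl, chr9:99496944-99497243 on the minus strand for Per2 and chr7:115206577-115206876 on the plus strand for Tef.
Arntl: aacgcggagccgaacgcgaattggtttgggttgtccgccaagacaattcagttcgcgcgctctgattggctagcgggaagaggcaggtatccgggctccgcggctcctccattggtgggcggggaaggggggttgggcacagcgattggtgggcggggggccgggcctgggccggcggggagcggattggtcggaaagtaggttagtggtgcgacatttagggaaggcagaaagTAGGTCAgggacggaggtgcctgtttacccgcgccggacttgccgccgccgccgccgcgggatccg
Per2: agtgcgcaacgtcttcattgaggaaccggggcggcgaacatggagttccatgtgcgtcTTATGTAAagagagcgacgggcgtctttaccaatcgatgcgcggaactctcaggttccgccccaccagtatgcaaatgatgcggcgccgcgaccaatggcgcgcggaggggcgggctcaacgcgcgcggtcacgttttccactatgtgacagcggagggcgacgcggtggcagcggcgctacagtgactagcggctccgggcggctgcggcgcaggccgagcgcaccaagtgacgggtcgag
Tef: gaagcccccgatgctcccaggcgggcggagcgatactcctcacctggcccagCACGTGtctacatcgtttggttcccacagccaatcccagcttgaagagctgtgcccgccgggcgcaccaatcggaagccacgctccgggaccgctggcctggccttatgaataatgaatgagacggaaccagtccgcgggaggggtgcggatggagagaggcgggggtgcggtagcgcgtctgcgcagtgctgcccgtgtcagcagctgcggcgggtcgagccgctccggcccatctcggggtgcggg
The motif began 16 bases before the start site in Arntl, 192 bases before it in Per2 and 198 bases before it in Tef. Of the 11 called genes of the clock lists, 10 matched 11 RefSeq windows, and on either strand 4 of those genes held at least 1 of the 3 motifs, the fourth being Por with TAGGTCA on the opposite strand. Among all 33469 windows of 300 bases, 6.42% held CACGTG, 2.24% TTANGTAA and 2.63% TAGGTCA. The share of windows with at least 1 of the 3 motifs was not counted. The 4 of 10 genes therefore have no like share beside them. A match of letters is a description of the window, not a bound site.

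Among the activators, Arntl stood at 13.6, 15.9 and 14.3 CPM in control kidneys 1, 2 and 3 and at 3.26, 4.05 and 5.95 CPM in icariin kidneys 1, 2 and 3. It fell by 1.55 ± 0.19 (SE) on the log2(CPM + 1) scale used for all fold changes here (adjusted p = 0.0119). Every icariin kidney was below every control, and the CIAKI kidneys lay above both groups at 16.3 to 23 CPM. Npas2, the alternative partner of ARNTL, was at 9.03, 11.6 and 12.4 CPM in controls and at 2.22, 2.24 and 1.07 CPM with icariin, a log2 difference of -2.10 ± 0.23 (adjusted p = 0.00573). Again the groups were apart, and the CIAKI kidneys lay between them (log2 difference of -1.08 from control). Clock had the smallest difference of the 3, from 227, 212 and 243 CPM to 150, 152 and 179 CPM, and fell by 0.50 ± 0.09 (adjusted p = 0.0488).

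Among the repressors, Cry1 rose from 6.12, 6.92 and 8.14 CPM in controls to 15.7, 16.5 and 19 CPM (log2 difference 1.17 ± 0.13, adjusted p = 0.00573). The CIAKI kidneys were higher still, at 23.7 to 27.6 CPM. Per2 stood at 59.5, 52 and 63.1 CPM in controls and at 119, 130 and 119 CPM with icariin (1.07 ± 0.14, adjusted p = 0.0142). All 3 icariin kidneys thus held more Per2 than any control, whereas the CIAKI kidneys, at 49.5 to 74.1 CPM, overlapped the controls. Per1 rose by 0.74 (adjusted p = 0.0484) with a CIAKI difference of 0.71, and Per3 rose by 0.73 (adjusted p = 0.0373) with a CIAKI difference of -0.42. Rora rose from 31.7 to 34.2 CPM in controls to 42.1 to 46.5 CPM (0.42, adjusted p = 0.0453).

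Core clock members that were not called included Cry2 at a log2 difference of 0.52, Ciart at 1.20, Nr1d2 at 0.37, Bhlhe40 at 0.15, Bhlhe41 at 0.23 and Nr1d1 at -0.55. Nr1d1, which encodes the repressor REV-ERB alpha, spread widely within the icariin group, at 74, 56.8 and 23.5 CPM against 74.6, 54.6 and 77.8 CPM in controls. The list's median log2 difference was 0.42, beside -0.00 over all tested features. Of its 15 members, 12 had an unadjusted p below 0.05, beside 10.2% of all tested features.

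**Figure D3:**
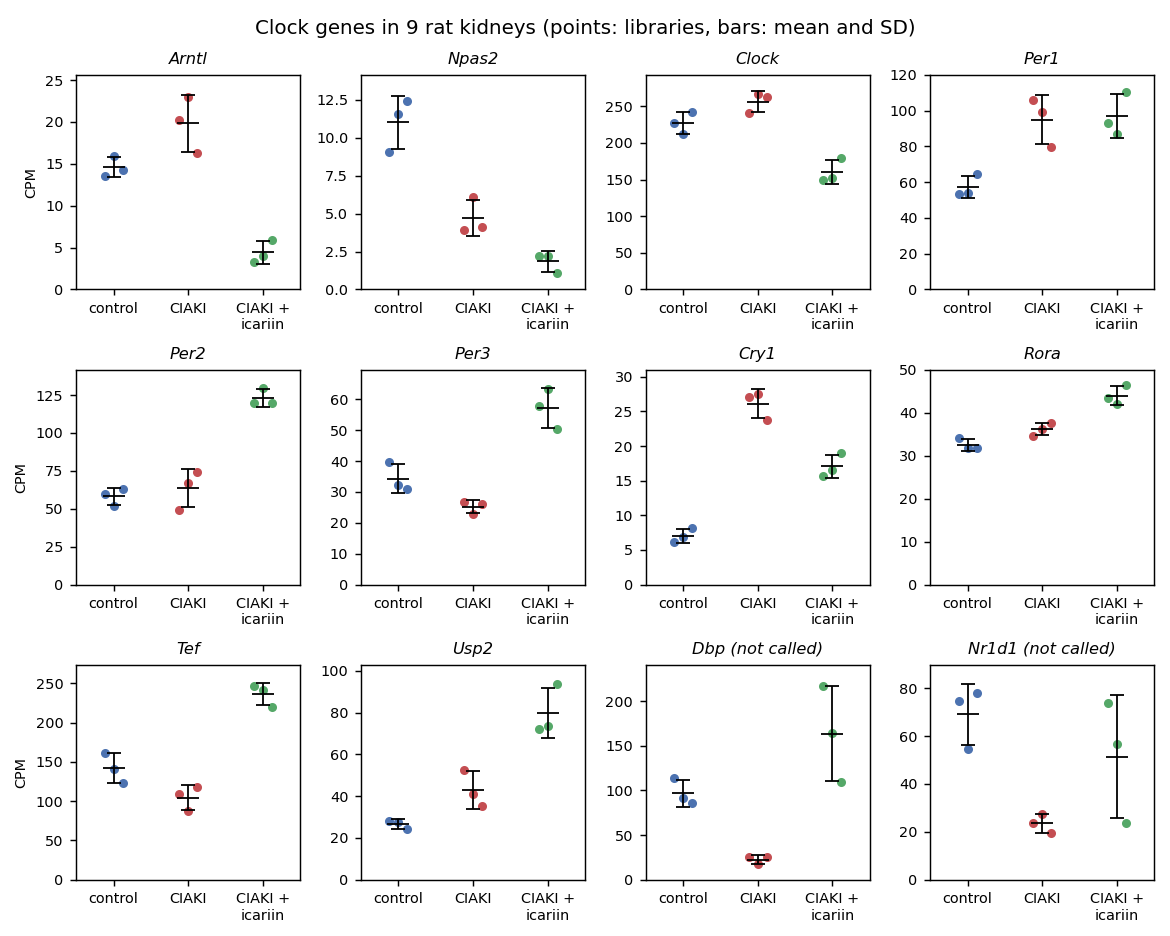
CPM of 10 called and 2 uncalled clock genes in each library (points) with group mean and SD (bars), for control, CIAKI and CIAKI with icariin. Arntl, Npas2 and Clock are lower in the icariin kidneys than in every control, the Per genes and Cry1 are higher, and Nr1d1 overlaps.

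Of the output genes that the clock drives, Usp2, a deubiquitinase, rose from 28.2, 27.9 and 24.2 CPM to 72.1, 73.7 and 93.7 CPM (1.54 ± 0.15, adjusted p = 0.00521). The CIAKI kidneys held 35.1 to 52.7 CPM. Tef, a PAR-bZIP factor that binds D-boxes, rose from 161, 141 and 123 CPM to 247, 241 and 220 CPM (0.74, adjusted p = 0.0454), while the CIAKI kidneys were below the controls (-0.44). Por, the electron donor of microsomal cytochromes P450, rose by 0.56 (adjusted p = 0.0454). The other PAR-bZIP genes did not pass: Hlf stood at 10.1 to 11.5 CPM in controls and 18.7 to 19.7 CPM with icariin (0.78, adjusted p = 0.0564), and Dbp at 85.4 to 114 CPM and 110 to 217 CPM (0.71, adjusted p = 0.306). In CIAKI kidneys Dbp was at 17.4 to 25.5 CPM. The 15 tested output genes had a median of 0.71. Of these, 12 had an unadjusted p below 0.05, all in the direction of higher levels, beside 10.2% of all tested features in either direction.

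Npas2, Cry1 and Usp2 kept their calls in all 24 alternative analyses, which changed the pseudocount, filter, scaling, variance model or test, or left out 1 of the 9 libraries. The other 6 core clock calls and 2 output calls each ended when 1 library was left out, with adjusted p-values of up to 0.196. Some also depended on the processing. Clock kept its call in 6 of the 24 alternatives, and Per1 and Rora kept theirs in 7 each. Clock, Per1 and Rora lost their calls with TMM, upper-quartile or quantile scaling and with edgeR. Per3 kept its call in 14 of the 24 alternatives and lost it without an intensity trend, among others. Per3, Clock and Rora lost their calls with only the control and icariin libraries in the fit. Tef and Por lost theirs with quantile scaling and with edgeR, while Arntl and Per2 lost theirs only in leave-outs. Arntl lost its call without control 2, control 3 or icariin 2 (up to 0.0696), and Per2 without control 1, control 2, icariin 2 or icariin 3 (up to 0.0696). edgeR's quasi-likelihood test on the reads called 5 of the 15 core clock genes and DESeq2 called 11.

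PPAR alpha targets and fasting genes were higher with icariin plus contrast, and all 24 tested members had a log2 difference above 0. The 9 that passed the test were all higher, among them Angptl4, Creb3l3, Vnn1, Cyp4a1, Ehhadh, Slc25a34, Acaa1a and Cpt1a. The list's median was 0.54, and 15 members had an unadjusted p below 0.05, beside 10.2% of all tested features.

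Angptl4, a secreted inhibitor of lipoprotein lipase, rose from 2.82, 1.19 and 1.33 CPM to 13.4, 31.4 and 40.5 CPM (3.32 ± 0.45, adjusted p = 0.0189). Here the CIAKI kidneys were far above the icariin kidneys, at 64.9 to 165 CPM. Creb3l3, a membrane-bound transcription factor of lipid metabolism, rose from 0.219 to 0.489 CPM in controls to 2.74 to 10.5 CPM (2.28, adjusted p = 0.0357).

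Cyp4a1, a fatty acid omega-hydroxylase, stood at 81.3, 64.6 and 68.7 CPM in controls and at 192, 217 and 230 CPM with icariin (1.56 ± 0.15, adjusted p = 0.00508), with the CIAKI kidneys between them at 108 to 162 CPM. Its near relatives Cyp4a2, Cyp4a3 and Cyp4a8 were not called (0.44, 0.28 and 0.12), and the sources used here do not say how reads shared by such copies were counted. Vnn1, a pantetheinase that recycles vitamin B5 from coenzyme A breakdown, rose from 44.5, 51.1 and 52.8 CPM to 175, 230 and 227 CPM (2.06 ± 0.24, adjusted p = 0.00836). Both enzymes were apart from the controls in every icariin kidney.

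Ehhadh, the peroxisomal bifunctional enzyme, stood at 231, 273 and 206 CPM in controls, 522, 697 and 654 CPM in icariin kidneys and 184, 395 and 292 CPM in CIAKI kidneys (1.40 ± 0.25, adjusted p = 0.0489). Acaa1a, a peroxisomal thiolase, stood at 88.2, 80 and 84.2 CPM, 133, 146 and 171 CPM, and 55.1, 77.2 and 73 CPM in the same order (0.82 ± 0.13, adjusted p = 0.037). In both genes every icariin kidney exceeded every control and CIAKI kidney, and the difference between icariin and CIAKI was not tested.

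Mitochondrial entry and oxidation genes were higher as well. Cpt1a, which loads fatty acids onto carnitine at the outer membrane, rose from 309, 325 and 307 CPM to 518, 583 and 555 CPM (0.81, adjusted p = 0.0275), and Cpt2, its partner at the inner membrane, from 46.7, 50.6 and 48.8 CPM to 77.9, 95.2 and 88.1 CPM (0.82, adjusted p = 0.0282). In both, the CIAKI kidneys were higher than the icariin kidneys. Eci1, an enoyl-CoA isomerase for unsaturated fatty acids, rose from 104, 110 and 111 CPM to 310, 592 and 373 CPM (1.91 ± 0.20, adjusted p = 0.00573), with CIAKI kidneys at 412 to 511 CPM. Decr1, a dienoyl-CoA reductase, rose by 0.85 (adjusted p = 0.0159) and Acadl, the long-chain acyl-CoA dehydrogenase, by 0.65 (adjusted p = 0.0282). All 17 tested oxidation genes had a difference above 0, with a median of 0.41. Of the 17, 15 had an unadjusted p below 0.05, beside 10.2% of all tested features. Acat1 and Echs1 were the members nearest to 0, at 0.00 and 0.06.

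Several called genes of the same chemistry stood outside the lists and were grouped here after their values were seen. Slc27a2, Pex11a and Mgll met the rule for named genes, while Ech1, Slc25a42, Mlycd and Acot7 fell outside it and were picked on their values. Ech1, a dienoyl-CoA isomerase, rose from 87.3, 83.1 and 85.2 CPM to 171, 181 and 174 CPM (1.03, adjusted p = 0.0125). Slc27a2, which transports and activates very long-chain fatty acids, rose by 0.83, Pex11a, a peroxisome division factor, by 1.39, and Slc25a42, the mitochondrial coenzyme A carrier, by 0.95. Mgll, a monoacylglycerol lipase, rose by 0.61, and Mlycd, which breaks down malonyl-CoA, by 0.52. Acot7, a cytosolic acyl-CoA thioesterase, had the smallest p of all features: it rose from 15.5, 15.9 and 13.1 CPM to 33.1, 34.5 and 34 CPM (1.14 ± 0.09, adjusted p = 0.00294), with CIAKI kidneys at 67.1 to 76.8 CPM. Ppara itself was not called, at 52.9 to 57.9 CPM in controls and 61.2 to 72.3 CPM with icariin (0.30, adjusted p = 0.689). Pdk4, a kinase that shuts off pyruvate dehydrogenase in fasting, missed the threshold at 7.77 to 10.6 CPM against 26.2 to 71.4 CPM (2.20, adjusted p = 0.0516).

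**Figure D4:**
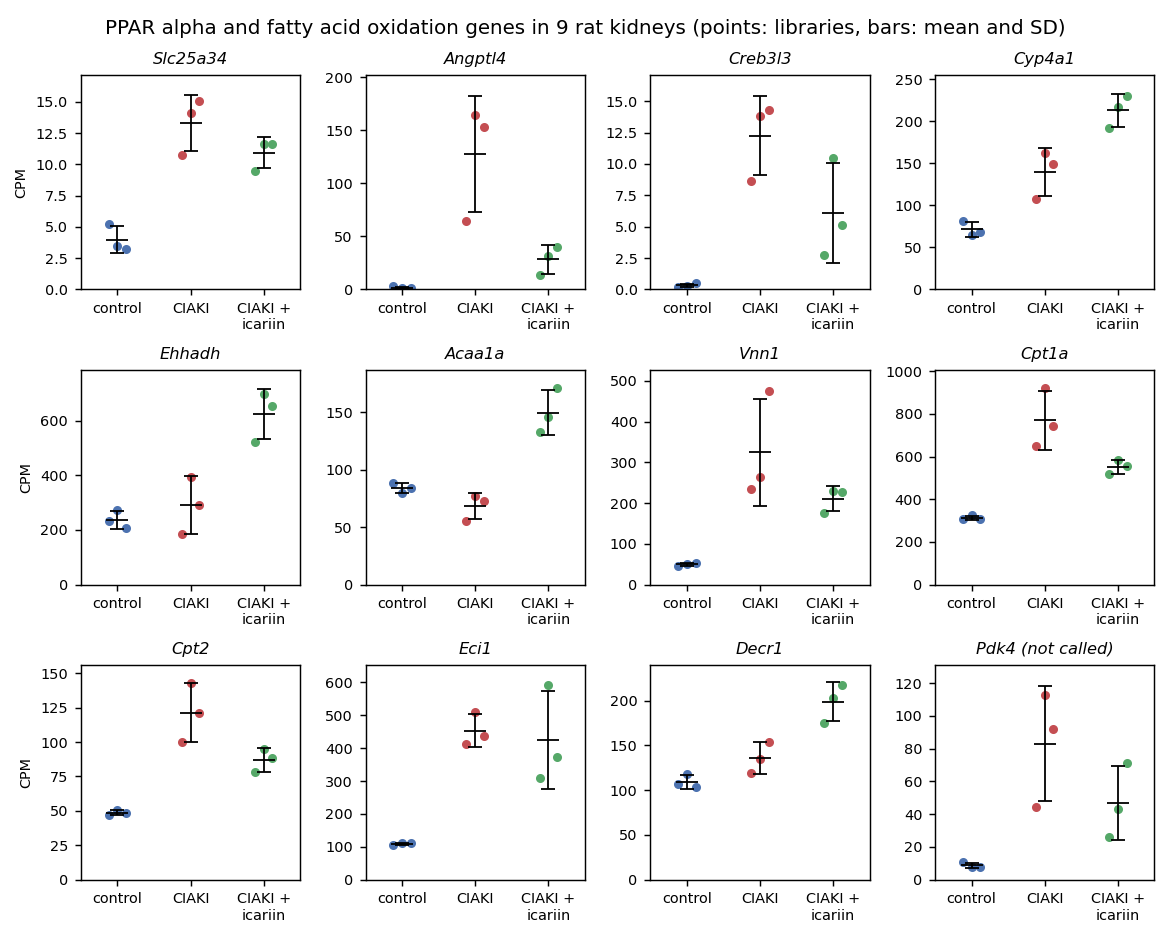
CPM of 11 called lipid genes and the uncalled Pdk4 in each library (points) with group mean and SD (bars), for control, CIAKI and CIAKI with icariin. Cyp4a1, Ehhadh, Acaa1a and Decr1 have their highest group mean in the icariin kidneys, and Angptl4, Creb3l3 and Cpt1a in the CIAKI kidneys.

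Cyp4a1, Vnn1, Eci1 and Acot7 kept their calls in all 24 alternatives. The other 6 PPAR alpha calls and 3 oxidation calls each ended when 1 of several libraries was left out, with adjusted p-values of up to 0.191 and 0.131. Angptl4 lost its call without control 2, control 3, icariin 2 or icariin 3 (up to 0.0971). Ehhadh lost it without any of the 6 libraries compared or CIAKI kidney 3 (up to 0.191). Ehhadh kept its call in 8 of the 24 alternatives and also lost it with other pseudocounts, with TMM, upper-quartile or quantile scaling, and with edgeR. Acaa1a, Acadl, Slc27a2, Mgll and Slc25a42 lost theirs with TMM scaling and with edgeR too, while Angptl4, Decr1 and Ech1 lost theirs only in leave-outs. The calls of Ech1, Slc27a2, Pex11a, Slc25a42, Mgll and Mlycd ended without 5 or more libraries each, with adjusted p-values of 0.0696 (Ech1) to 0.191 (Slc25a42).

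Of 12 tested glucocorticoid-responsive genes, 3 were called, all higher, beside 0.628% of all tested features called in either direction. Fkbp5, which encodes a co-chaperone that dampens steroid receptor signalling, stood at 28.6, 30.1 and 30.3 CPM in controls and at 83.6, 95.8 and 128 CPM with icariin (1.73 ± 0.17, adjusted p = 0.00508), with CIAKI kidneys at 152 to 215 CPM. Zbtb16, a zinc finger transcription factor induced by steroids, rose from 1.37, 0.79 and 2.39 CPM to 13.5, 14.5 and 23.2 CPM (2.85 ± 0.34, adjusted p = 0.0115), a range that overlapped the CIAKI kidneys at 12.9 to 30.5 CPM. Tsc22d3, which encodes the anti-inflammatory leucine zipper protein GILZ, rose from 48.1, 46.4 and 64.7 CPM to 93.5, 97.2 and 133 CPM (1.01, adjusted p = 0.0326). No icariin kidney overlapped the controls in these 3 genes. Other members were not called: Sgk1 was at 275 to 428 CPM in controls and 230 to 660 CPM with icariin, Klf9 at a log2 difference of 0.15, Ddit4 at 0.44 and Cebpb at -1.61. The list's median was 0.36. Fkbp5 and Zbtb16 kept their calls in all 24 alternatives, and Tsc22d3 lost its call without control 1, control 2 or any icariin library (up to 0.131). Tsc22d3 kept its call in 14 of the 24 alternatives. It also lost the call with TMM scaling, with edgeR, without an intensity trend and with only the control and icariin libraries in the fit.

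Named genes lower with icariin plus contrast included Calb1, the calcium-binding protein calbindin of the distal and connecting tubule. It stood at 612, 550 and 534 CPM in controls and at 198, 255 and 224 CPM with icariin (-1.32 ± 0.11, adjusted p = 0.00294). The icariin range covered that of the CIAKI kidneys, 202 to 239 CPM. It was the only called gene of 10 tested distal and connecting tubule markers, whose median was -0.29 and whose summed level was 2874 to 3285 CPM in controls and 2103 to 2387 CPM with icariin. That sum includes Calb1. Of the 10 markers, 4 had an unadjusted p below 0.05, all lower, beside 10.2% of all tested features. Control and icariin libraries did not overlap in 6, beside 19.3% of all tested features. In whole kidney tissue, fewer cells of a type and less RNA per cell cannot be told apart. Calb1 kept its call in all 24 alternatives.

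Csmd1, Slc17a3 and Cotl1 were called lower with icariin plus contrast and called higher in CIAKI kidneys, both against the same controls. Csmd1, a large membrane protein with complement control domains, stood at 71.7, 56.5 and 58.8 CPM in controls, 19.1, 20.5 and 29.8 CPM in icariin kidneys and 152 to 198 CPM in CIAKI kidneys (-1.41 ± 0.17, adjusted p = 0.0115). Slc17a3, an organic anion and urate transporter of the proximal tubule, stood at 264, 266 and 251 CPM, 152, 144 and 156 CPM, and 553 to 738 CPM in the same order (-0.79 ± 0.10, adjusted p = 0.0125). In both genes the 3 groups did not overlap and the icariin kidneys were lowest. Cotl1, an actin-binding protein, had log2 differences of -0.57 (adjusted p = 0.0282) with icariin and 0.38 in CIAKI. Csmd1 lost its call without icariin 2 (0.0573), Slc17a3 without any control or icariin 2 (up to 0.0696), and Cotl1 in 5 of the 6 leave-outs (up to 0.124). Cotl1 also lost its call without an intensity trend and with replicate number as a block.

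The 20 tested sterol synthesis genes had a median of -0.31, and 15 were below 0. Of these genes, 1 was called and is not named here. Dhcr7 at -0.65, Idi1 at -0.64, Cyp51 at -0.50 and Hmgcs1 at -0.50 were not called. Slc17a3 was the only called gene of 35 tested proximal tubule markers, whose median was 0.04, and their summed level was 47566 to 52145 CPM in controls and 49687 to 54980 CPM with icariin.

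Single members of other lists were called. Aqp2, the vasopressin-regulated water channel of principal cells, rose from 189, 191 and 219 CPM to 573, 493 and 388 CPM (1.26 ± 0.20, adjusted p = 0.0318), with CIAKI kidneys at 272 to 457 CPM. Aqp3, the water channel of the opposite membrane, was not called at 111 to 152 CPM against 215 to 230 CPM (0.77, adjusted p = 0.124), and Avpr2, the vasopressin receptor, differed by -0.15. Tek, the angiopoietin receptor of endothelial cells, rose from 78.4 to 88.2 CPM to 111 to 130 CPM (0.54, adjusted p = 0.0282).

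Ccl2, a chemokine that draws monocytes, was low in all 6 libraries and fell from 2.95, 3.65 and 4.61 CPM to 1.47, 0.977 and 0.454 CPM (-1.29 ± 0.22, adjusted p = 0.0449). Apln, the vasoactive peptide apelin, fell from 7.97, 7.65 and 6.18 CPM to 2.44, 3.13 and 2.28 CPM (-1.19 ± 0.16, adjusted p = 0.016). In CIAKI kidneys both were lower as well, by -1.47 and -1.75. Ldha, a lactate dehydrogenase subunit, rose from 149, 160 and 148 CPM to 212, 227 and 195 CPM (0.46, adjusted p = 0.0397), with CIAKI kidneys at 481 to 538 CPM. All 5 of these calls (Aqp2, Tek, Ccl2, Apln and Ldha) ended without each of several libraries, with adjusted p-values of 0.117 to 0.188 in the least favourable case for the genes other than Apln (0.0767).

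Grem1, a secreted antagonist of bone morphogenetic proteins, stood at 30.1, 23.2 and 28 CPM in controls and at 95.7, 79 and 76.2 CPM with icariin (1.59 ± 0.14, adjusted p = 0.00294). CIAKI kidneys were at 90.5 to 121 CPM for Grem1. Mcoln3, an endolysosomal cation channel, rose from 13.7 to 15.6 CPM to 40.1 to 45.9 CPM (1.49, adjusted p = 0.00521). Zhx3, a zinc finger and homeobox repressor, rose from 102, 114 and 116 CPM to 214, 208 and 243 CPM (1.00, adjusted p = 0.00386). For Grem1, Mcoln3 and Zhx3 the control libraries lay apart from all 6 others, and their calls held in all 24 alternatives.

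Among the remaining named genes higher with icariin plus contrast, Gpx2, a selenium-dependent glutathione peroxidase, rose by 1.26 from 2.67 to 4.38 CPM in controls, beside 3.12 in CIAKI. Nat8f3, an N-acetyltransferase family member, rose from 82.1, 64.3 and 72.2 CPM to 131, 179 and 194 CPM (1.18, adjusted p = 0.0282), and its CIAKI difference was -0.01. Nat8 genes are close copies, so its reads may be shared among them. Car15, a membrane-anchored carbonic anhydrase, rose by 1.27, and Chrna2, a nicotinic receptor subunit, by 1.21.

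Among the remaining named genes that were lower, Psph, which makes serine from phosphoserine, fell by 1.43, Tdrd5, a tudor domain protein, by 1.30, and Col15a1, a basement membrane collagen, by 1.16. Adam19, a membrane metalloprotease, fell by 1.16, Creb3l1, a membrane-bound transcription factor, by 1.03, and Marcks, a substrate of protein kinase C, by 0.99. Serpinb9, an inhibitor of granzyme B, fell by 0.98, Kif20a, a mitotic kinesin, by 0.95, and Ahcyl2 by 0.80. In CIAKI the log2 difference of each of these 9 genes from control was below 0, from -0.37 for Creb3l1 to -2.42 for Col15a1. Dtx4, a deltex ubiquitin ligase, fell by 1.00 from 13.9, 12.2 and 13.9 CPM to 5.19, 6.11 and 7.37 CPM (adjusted p = 0.0209), beside -0.03 in CIAKI. The calls of the genes named from Gpx2 to Chrna2 and from Psph to Dtx4 each ended without at least 2 of the 9 libraries, with adjusted p-values of 0.0671 (Tdrd5) to 0.188 (Kif20a) in the least favourable case. All of these genes except Tdrd5, Serpinb9 and Ahcyl2 also lost their calls under some change of processing.

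**Figure D5:**
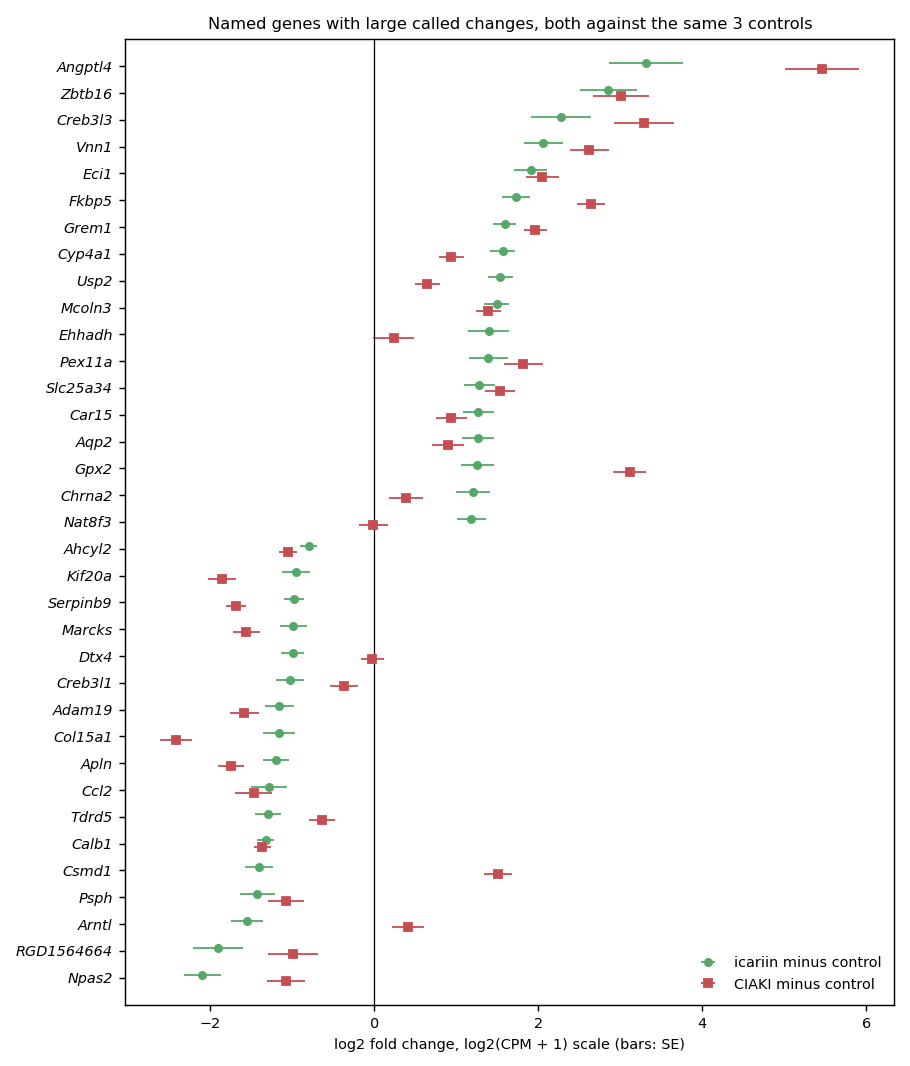
Log2 fold change with SE (bars) of 35 named genes with large called changes, for icariin minus control (green circles) and CIAKI minus control (red squares), both against the same 3 controls. Csmd1 and Arntl lie left of 0 for icariin and right of 0 for CIAKI, and Nat8f3 and Dtx4 lie near 0 for CIAKI.

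None of the 22 tested members of the tubular injury list passed limma's test, edgeR called 0, and DESeq2 called 1 (Vcam1). At an unadjusted p below 0.05, 2 of the 22 differed (Vcam1 and Fgb, both lower), a share near the 10.2% of all tested features. The list's median was 0.00. Havcr1, which encodes the injury marker KIM-1, stood at 1.25, 1.08 and 0.529 CPM in controls and at 2.54, 2.63 and 1.35 CPM in icariin kidneys, beside 229 to 742 CPM in CIAKI. The log2 difference of 0.69 had a 95% interval of -0.16 to 1.55 (adjusted p = 0.607). All 3 icariin kidneys were above all 3 controls, at a level a small part of that in CIAKI. Lcn2, the secreted injury marker NGAL, stood at 2.29 to 2.89 CPM and 2.05 to 4.08 CPM (0.15, interval -0.63 to 0.93), and Spp1, osteopontin, at 138 to 379 CPM and 221 to 482 CPM (0.64, interval -0.52 to 1.80). Clu differed by -0.31 (interval -0.63 to 0.01), Timp1 by -0.11 (-0.55 to 0.33) and Hmox1 by -0.62 (-1.44 to 0.19). Intervals of this width do not show that the levels were equal.

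The tubule genes Slc34a1, Lrp2 and Umod and the genes of 2 proteins proposed as icariin targets also missed the threshold. Slc34a1 differed by -0.09 (interval -0.48 to 0.29), Lrp2, the endocytic receptor megalin, by -0.23 (-0.71 to 0.25) and Umod by 0.18 (-0.31 to 0.66). Esr1, the oestrogen receptor alpha, stood at 127 to 162 CPM in controls and 156 to 172 CPM with icariin (0.18, interval -0.39 to 0.74), and Pde5a, the cyclic GMP phosphodiesterase, at 8.98 to 12.3 CPM and 8.69 to 9.76 CPM (-0.12, interval -0.42 to 0.18). In CIAKI kidneys Esr1 was lower by -2.99 on the log2 scale.

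Red blood cell markers varied widely within both groups. Hbb, the beta globin, stood at 401, 78 and 68.6 CPM in controls and at 67.5, 416 and 397 CPM with icariin, and the 8 erythroid markers in the table summed to 239 to 1425 CPM in controls and 199.9 to 1435 CPM with icariin. No erythroid marker was called, and the part of blood content in the called genes was not tested. Lymphocyte markers summed to 40.8 to 44.1 CPM in controls and 22.4 to 37.9 CPM with icariin, so the sums did not overlap. None of the 7 tested was called, and all 7 were below 0 with a median of -0.43. Of the 7, 4 had an unadjusted p below 0.05, beside 10.2% of all tested features. The part of lymphocyte content in the called genes was not tested. Neutrophil and adrenal cortex markers were nearly absent, with sums of 0.736 to 3.71 CPM and 1.07 to 2.12 CPM.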

How the data were processed

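RNA was taken from frozen whole kidneys with Trizol, and libraries were made with an Illumina TruSeq RNA kit, per the labels. The authors deposited expression as CPM per feature, for 22050 Ensembl rat genes and 14217 assembled features. The submitters' processing notes name Bowtie 0.12.2 and mm8, a mouse build, while the identifiers are of rat, so the reference used is not settled. The sources used here name no counter, annotation or use of strand. Whole reads could be recovered from the steps of the CPM values (100% of values within 0.1 reads of a whole number), and all 23850 values compared with the authors' deposited read counts were equal. Tables of circular RNA, long noncoding RNA and microRNA hold no control columns and were not used.

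limma 3.58.1 (R 4.3.3) was fitted with an intensity trend to log2(CPM + 1) of all 9 libraries with group as factor, with Benjamini-Hochberg adjustment over 16731 features. Each group held 3 rats, per the series' design text, so p-values measure the spread between rats. Replicate libraries differed beyond counting noise in every group (chi-square per degree of freedom of 87.5 to 247). Pairs with icariin kidney 2, the library low in Mt-co1, gave 238 and 247, and the other pairs gave 87.5 to 155. The part of Mt-co1 in these values was not tested. Alternatives used edgeR 4.0.16 and DESeq2 1.42.0 on the recovered reads, other pseudocounts, filters, scalings and variance models, and each library left out, 24 in all. The procedure was tested on simulated data.

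Members and gene lists (51 lists, 886 genes) were chosen with earlier results of these data known. Of the 902 list entries, 783 were tested and 63 were below the minimum. Named genes were, per direction, up to 20 called with the largest change and up to 8 with the highest level, every called list member, the member with the smallest p of each list with none called, and 11 kidney and target genes whatever their values. Other uncalled list members are given as examples. Zhx3, Acot7, Ech1, Slc25a42 and Mlycd fall outside that rule and were chosen after their values were seen. Features whose symbols had turned into dates (25) are not named, and the results of some genes are not reported here. Of the tested features, 409 reach the minimum only with a CIAKI library.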

Additional observations from a re-analysis of the deposited data

How the results depend on the processing

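Against 105 called features (67 higher and 38 lower), the count was 52 without a filter on low values (32 and 20) and 524 with DESeq2 (295 and 229), which held 103 of the 105. It was 76 with edgeR (75 shared). Without an intensity trend 39 were higher. Leaving out 1 library gave 31 to 127 called features, 20 to 90 higher and 8 to 37 lower, and leaving out control 2, control 3 or icariin 2 gave 31 each. Of the 105 calls, 22 held in all 6 leave-outs of control and icariin libraries and 20 in all 24 alternatives. With only the control and icariin libraries in the fit, 144 features were called, 98 higher and 46 lower, and 85 of the 105 were shared. TMM scaling gave 86 (83 shared). With the replicate block, 73 features were called, 49 higher and 24 lower. Same-numbered control and icariin libraries did not deviate together (correlations of -0.012, -0.016 and -0.023), and no label gives a pairing. For the 62 called named genes, 1042 of 1486 values under alternatives kept direction and call, 444 lost the call and 0 changed direction. For the 47 uncalled ones, 33 of 1120 passed. Lists with no tested member under an alternative (neutrophil and adrenal cortex at the higher minimum, mitochondrially encoded genes when left out) have no median there. The causes of these shifts were not tested. The number of rats, 3 a group, limits the precision, and 1 CPM rested on at least 64.4 reads.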

Other observations

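Some lists without a called member still leaned one way. Over all tested features, 10.2% had an unadjusted p below 0.05. In the cell cycle list, 11 of 24 tested genes were lower at an unadjusted p below 0.05 and 1 was higher, with a median of -0.40; Ccnb1, the mitotic cyclin B1, stood at 4.1, 4.94 and 4.12 CPM in controls and at 1.78, 2.65 and 1.61 CPM with icariin (-0.85, adjusted p = 0.073). In the fatty acid synthesis list, 5 of 12 were lower and 1 was higher, with a median of -0.33; Fads1, a fatty acid desaturase, stood at 195 to 233 CPM in controls and 122 to 161 CPM with icariin (-0.60, adjusted p = 0.114). In the matrix remodelling list, 6 of 17 were lower and 1 was higher, with a median of -0.34.

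The means of Cyp2e1 and Gatm lay far apart without a call. Cyp2e1, a cytochrome P450 also induced in fasting, stood at 235, 188 and 232 CPM in controls and at 519, 396 and 371 CPM with icariin, while CIAKI kidneys averaged 112 CPM (0.96, adjusted p = 0.0564). Gatm, which makes the creatine precursor, stood at 3831, 3930 and 4967 CPM in controls and at 1082, 1191 and 2854 CPM with icariin (-1.45, adjusted p = 0.185).

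Of the 105 called features, 10 were assembled ones without a gene symbol, 5 higher and 5 lower. The lowest called log2 difference of all, -3.66, belonged to Rattus_norvegicus_newGene_23590, at 32.7, 37.3 and 52.1 CPM in controls and at 2.7, 2.25 and 1.8 CPM with icariin. CIAKI kidneys 1 and 2 were at control level, at 37.4 and 41.3 CPM, and CIAKI kidney 3 was at 7.02 CPM. The uncalled feature farthest from 0, Rattus_norvegicus_newGene_32644, had a log2 difference of -7.31 with wide spread, at 26.8, 1213 and 918.5 CPM in controls and at 0, 0 and 6.76 CPM with icariin. The called feature with the highest level, LOC100360087, was at 2043 to 2173 CPM in controls and 1346 to 1514 CPM with icariin (-0.55, adjusted p = 0.0497).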
